A study of Mus musculus with 36 samples.

Results

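The Myc family genes described here are Myc, Mycn, Max and Mga, 4 of 22380 protein-coding genes in the annotation (GENCODE vM1, mouse build mm9). Every ChIP-seq peak whose midpoint lay within 100 kb of the body of one of these genes was taken, in each of 9 peak lists, which gave 158 of 104813 peaks. The study asked where the chromatin complexes NuRD and SIN3A and the zinc finger protein ZFP296 bind in mouse embryonic stem cells (ESCs), and how NuRD binding changes in neural progenitor cells (NPCs). The lists came from wild-type R1 ESCs grown in serum and LIF with 2i (MBD3 and CHD4 with 2 replicates each, and SIN3A as 1 preparation without and 1 with spike-in chromatin), from NPCs derived in culture from wild-type R1 ESCs and kept in NPC medium (MBD3 and CHD4, 1 list each), and from an ESC line carrying a GFP-tagged ZFP296, precipitated with a GFP antibody. Of 36 samples, the other 27 were not analysed here, among them all libraries of the Zfp296 knockout clones. Gene expression was not part of these lists, so the cell labels could not be set against marker transcripts.

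MYC and MYCN are basic helix-loop-helix leucine zipper proteins that need the partner MAX to bind the E-box CACGTG, where they promote growth, ribosome production and proliferation. MAX also pairs with MXD proteins and MNT, which recruit SIN3 corepressors, and with MGA, a very large protein that carries a T-box domain besides its own helix-loop-helix and assembles the noncanonical Polycomb complex PRC1.6 on germline genes. In ESCs, Myc and Mycn are both active and overlap in function, and MGA and MAX keep meiotic genes silent. MBD3 and CHD4 are the methyl-binding-domain scaffold and the chromatin-remodelling ATPase of NuRD, and SIN3A is the scaffold of a separate histone deacetylase complex.

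Of the sequences under the peaks, those of the NPC CHD4 peaks carried the plainest shared feature, so 1 is printed for each gene. Each is the central 200 bases of the peak on the plus strand of mm9, and capitals mark the AP-1 string TGAGTCA or its reverse complement TGACTCA, the site bound by FOS and JUN dimers.
Myc, chr15:61910966-61911165: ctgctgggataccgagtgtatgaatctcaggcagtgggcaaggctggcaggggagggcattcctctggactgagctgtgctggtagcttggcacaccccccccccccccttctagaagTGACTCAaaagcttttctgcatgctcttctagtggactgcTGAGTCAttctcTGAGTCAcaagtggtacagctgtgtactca
Mycn, chr12:12989901-12990100: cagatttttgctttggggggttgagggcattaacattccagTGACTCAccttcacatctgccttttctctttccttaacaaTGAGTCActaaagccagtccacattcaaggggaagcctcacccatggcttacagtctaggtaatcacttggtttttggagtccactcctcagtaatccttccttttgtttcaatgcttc
Max, chr12:78123067-78123266: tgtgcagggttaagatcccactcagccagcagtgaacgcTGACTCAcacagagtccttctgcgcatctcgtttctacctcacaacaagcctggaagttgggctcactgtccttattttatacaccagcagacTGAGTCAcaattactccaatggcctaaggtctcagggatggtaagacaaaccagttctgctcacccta
Mga, chr2:119672782-119672981: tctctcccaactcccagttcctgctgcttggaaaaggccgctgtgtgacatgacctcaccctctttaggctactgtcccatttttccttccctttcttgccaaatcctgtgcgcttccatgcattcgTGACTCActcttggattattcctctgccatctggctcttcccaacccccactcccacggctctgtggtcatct
The window at Myc held 3 copies of the string, those at Mycn and Max 2 each, and that at Mga 1. The string was counted on both strands in all windows, and 7 of the 10 NPC CHD4 peaks near the 4 genes contained it. The peaks without it were all at Myc, at the start, at 13.6 kb and at 90.2 kb. Myc had 7 of the 10 peaks, and its printed window was that of the peak with the highest peak-caller value, 20.9. Among all 20223 NPC CHD4 windows of this length the share was 42.2%, so the string was common in the NPC list as a whole.

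For ESCs, the windows are those of sites bound by NuRD, meaning MBD3 peaks found in both ESC replicates that overlapped a CHD4 peak also found in both. The NPC windows above came from a single CHD4 list, so these sets differ in factor and in replication as well as in cell type. They are printed as a contrast, again as the central 200 bases on the plus strand, centred on the peak of MBD3 replicate 1.
Myc, chr15:61810576-61810775: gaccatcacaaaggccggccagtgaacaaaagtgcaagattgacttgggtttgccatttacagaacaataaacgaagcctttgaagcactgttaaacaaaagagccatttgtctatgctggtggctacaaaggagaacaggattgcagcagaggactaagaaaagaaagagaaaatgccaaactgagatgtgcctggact
Mycn, chr12:12934022-12934221: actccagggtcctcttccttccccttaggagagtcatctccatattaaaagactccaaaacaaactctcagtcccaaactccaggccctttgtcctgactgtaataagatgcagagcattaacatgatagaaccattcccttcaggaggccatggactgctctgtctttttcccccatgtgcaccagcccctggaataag
Max, chr12:78066128-78066327: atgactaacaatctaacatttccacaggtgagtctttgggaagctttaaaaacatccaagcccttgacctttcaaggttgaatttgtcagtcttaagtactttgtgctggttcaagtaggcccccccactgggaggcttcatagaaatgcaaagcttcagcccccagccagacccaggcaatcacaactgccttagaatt
Mga, chr2:119683259-119683458: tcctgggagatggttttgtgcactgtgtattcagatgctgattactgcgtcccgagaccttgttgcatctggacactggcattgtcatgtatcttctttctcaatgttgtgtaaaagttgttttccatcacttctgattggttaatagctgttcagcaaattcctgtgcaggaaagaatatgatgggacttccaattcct
None of 8 strings searched on both strands occurred in these 4 windows, so nothing is in capitals. The strings were CACGTG (E-box), ATGCAAAT (octamer of POU proteins), CCATTGT (SOX2), TCAAGGTCA (ESRRB), TGAGTCA (AP-1), GGGCGG (GC box), TTCCCGCC (E2F) and TTAGGG (telomere unit). A missing match says only that these letters were not in these windows. Mycn had another ESC NuRD site, at −1.46 kb, whose window is not printed and also held none of the 8 strings. An ESRRB string crossed the edge of that window, inside the MBD3 peak. Over all member peaks the AP-1 string occurred in 0 of 20 peaks of ESC CHD4 replicate 1 and in 1 of 56 of replicate 2, against 4.56% and 4.68% of those whole lists. The ESRRB string occurred in 1 of 19 peaks of MBD3 replicate 2, with its midpoint at −1.33 kb from the Mycn start, against 4.25% of that list. It also occurred in 1 of 24 SIN3A peaks without spike-in, with its midpoint at −1.46 kb from the same start, against 0.836% of that list. Both windows held the same copy of the string, the one at the edge of the unprinted Mycn window.

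**Figure D1:**
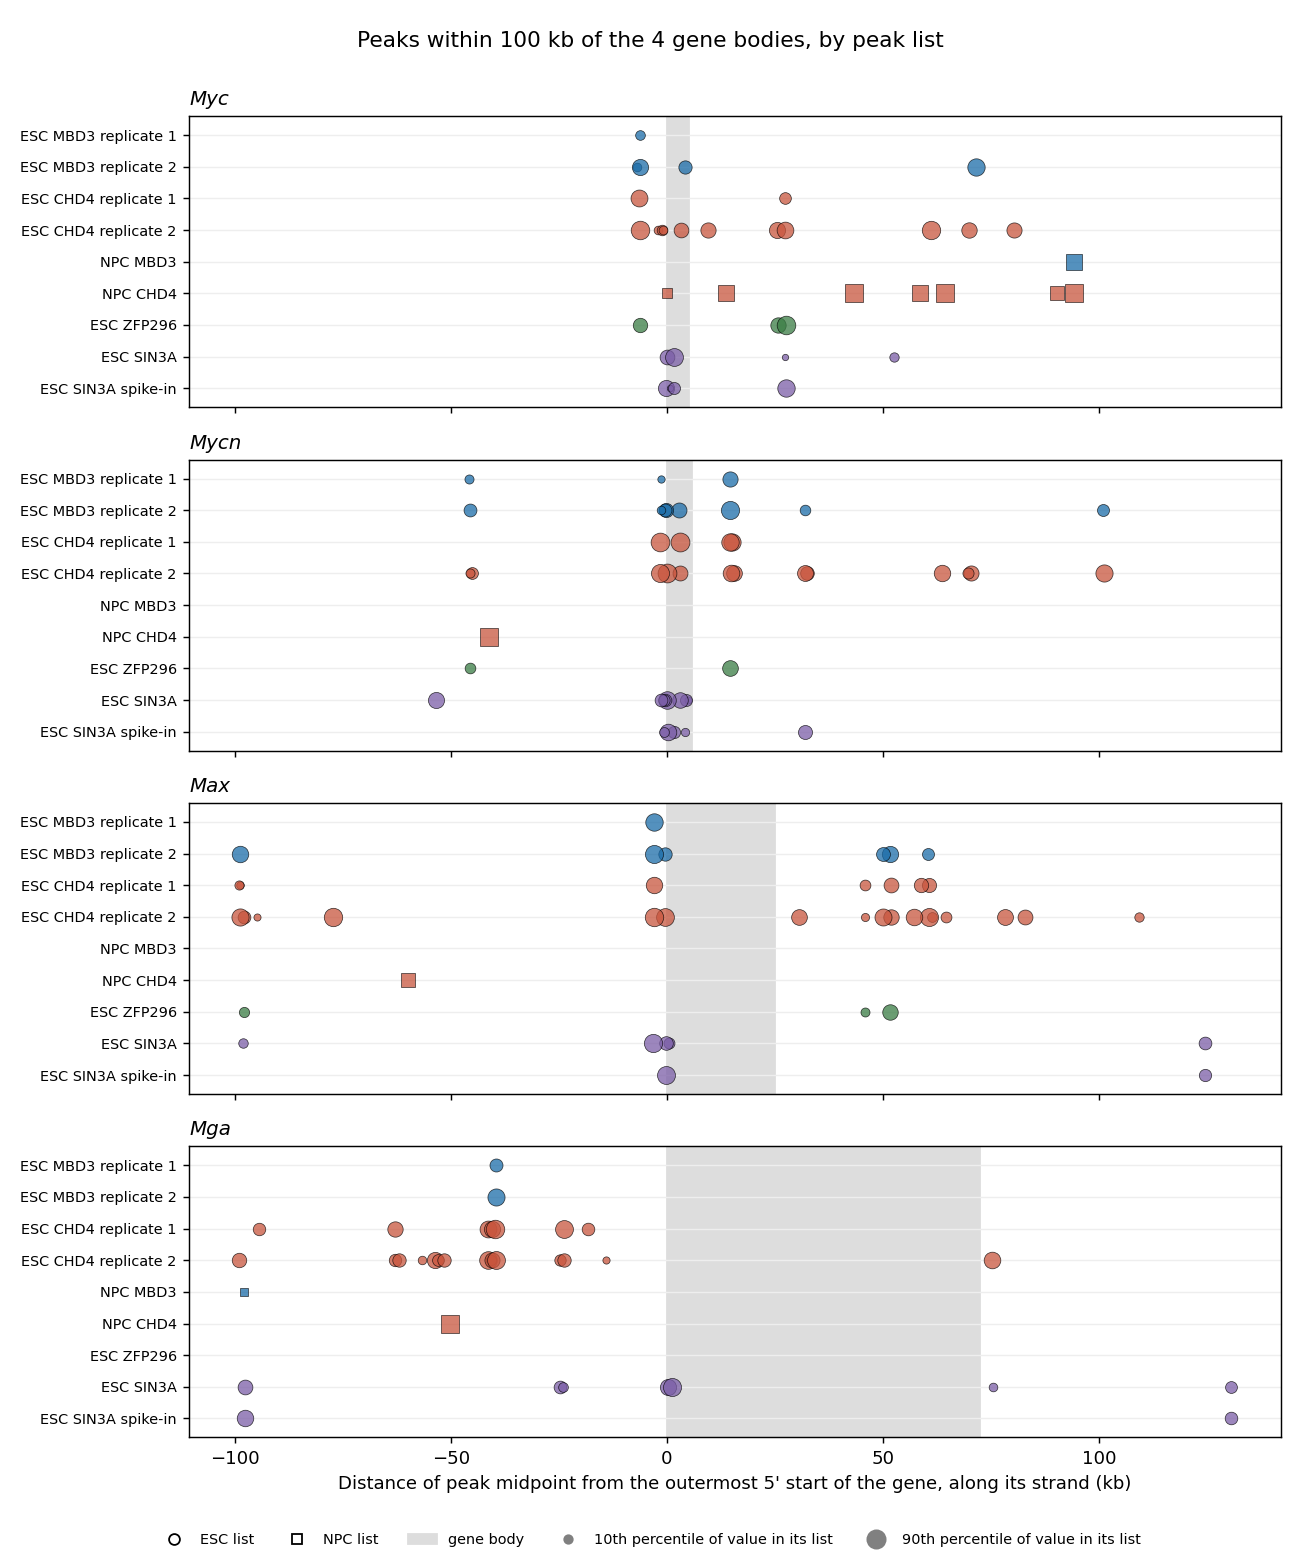
Peak midpoints of 9 lists (one line each) within 100 kb of the bodies of Myc, Mycn, Max and Mga, plotted by distance in kb from the outermost start of each gene along its own strand. Circles are ESC lists, squares NPC lists, symbol area rises with the percentile of the authors' value within its list, and grey marks the gene body. NPC CHD4 squares number 7 at Myc and 1 at each other gene.

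Myc, on the plus strand at chr15:61816946-61821929, had 37 peaks and was the one member with a peak in all 9 lists. ESC MBD3 gave 1 peak in replicate 1 and 4 in replicate 2, and ESC CHD4 gave 2 and 11. In NPCs, MBD3 gave 1 peak and CHD4 gave 7. ZFP296 gave 3 peaks, and SIN3A gave 4 without and 4 with spike-in. The counts were thus highest in ESC CHD4 replicate 2 and next highest in NPC CHD4. Of all protein-coding genes, 14.4% had as many NPC CHD4 peaks or more, 18.7% had as many peaks of ESC CHD4 replicate 2 or more, and 6.47% had as many ZFP296 peaks or more. For all 37 peaks the nearest start of a protein-coding gene was that of Myc.

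Peaks of different lists that overlapped were joined, which gave 24 regions at Myc. The region held by NuRD in ESCs lay at −6.25 kb from the start (chr15:61810322-61811075, intergenic) and held peaks of both MBD3 lists, both CHD4 lists and ZFP296. A second region, at 27.4 kb (chr15:61844099-61844495, intergenic), held peaks of both CHD4 lists, ZFP296 and both SIN3A lists. Its ZFP296 peak had the value 18.4, the 94.4th percentile of that list. Its SIN3A peak had the value 4.63 without spike-in, the 0.439th percentile, and 13.4 with spike-in, the 81.0th. Its CHD4 peaks were at the 30.0th percentile in replicate 1 and the 74.0th in replicate 2. Values here are the −log10 p or q that the authors' peak caller gave. The third, at the start itself (chr15:61816412-61817321), held NPC CHD4 and both SIN3A peaks. MBD3 and ZFP296 thus shared a region upstream of Myc, while ZFP296 and SIN3A shared the downstream region and SIN3A also lay at the start.

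In NPCs the peaks of Myc stretched downstream. Besides the start, CHD4 peaks lay at 13.6, 43.2, 58.6, 64.2, 90.2 and 94.1 kb, and 4 of these 6 fell in introns of Pvt1, a long non-coding RNA gene next to Myc. The last of them overlapped the single NPC MBD3 peak, which had the value 10.5 and the 67.5th percentile of its list. That was the 1 NuRD site of NPCs near the 4 genes. The CHD4 peak there had the value 20.9, the highest of the 10 NPC CHD4 peaks near the members.

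Mycn, on the minus strand at chr12:12942902-12948720, had 44 peaks in 8 lists, the most of the 4 genes. ESC MBD3 gave 3 peaks in replicate 1 and 8 in replicate 2, and ESC CHD4 gave 4 and 13. NPC MBD3 gave 0 and NPC CHD4 gave 1, so 43 of the 44 peaks were from the ESC lists, which were most of the 9 lists. ZFP296 gave 2 peaks, and SIN3A gave 8 without and 5 with spike-in. As many peaks or more were found at 4.10% of all protein-coding genes in MBD3 replicate 1 and at 1.25% in replicate 2, so Mycn stood near the top of the MBD3 lists. For 9 of the 44 peaks the nearest start belonged to Rpl36-ps3.

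The 21 regions of Mycn included 5 held in 4 or more lists, against 2 at Myc, 3 at Max and 1 at Mga. The region at −1.60 kb (chr12:12949849-12950801, intergenic) held both MBD3, both CHD4 and SIN3A without spike-in. The region at 14.7 kb (chr12:12933474-12934498, intergenic, past the 3′ end of the gene) held both MBD3, both CHD4 and ZFP296, and its highest MBD3 value was 14.9, in replicate 2. A region at 2.96 kb in an intron of Mycn held MBD3 replicate 2, both CHD4 lists and SIN3A without spike-in, with a CHD4 value of 22.8 in replicate 1, the 97.5th percentile of that list. Of the 4 genes, Mycn alone had 2 ESC NuRD sites, at −1.46 kb and 14.6 kb, and the second overlapped a ZFP296 peak. The first rested on weak MBD3 peaks, with values of 4.298 in replicate 1 and 4.999 in replicate 2. These were at the 4.56th and 10.5th percentiles of their lists. With values of at least 5 this site dropped out, and the NuRD sites near the 4 genes fell from 5 to 4.

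Max, on the minus strand at chr12:78038256-78063235, had 42 peaks in 8 lists. ESC MBD3 gave 1 peak in replicate 1 and 6 in replicate 2, and ESC CHD4 gave 7 and 17. NPC MBD3 gave 0, NPC CHD4 gave 1, ZFP296 gave 3, and SIN3A gave 5 without and 2 with spike-in. The 17 peaks of CHD4 replicate 2 were the most of any gene and list here, and 7.55% of protein-coding genes had as many or more. Of all genes 3.44% had as many peaks of MBD3 replicate 2 or more.

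The NuRD region of Max lay at −3.10 kb (chr12:78066045-78066620, intergenic) and held both MBD3, both CHD4 and SIN3A without spike-in, whose value of 23.2 was the highest of that list near the 4 genes. A region across the start at −0.215 kb held MBD3 replicate 2, CHD4 replicate 2 and both SIN3A lists. The third, at 51.8 kb (chr12:78011281-78011686), lay in an intron of Fntb, which encodes the beta subunit of protein farnesyltransferase, and held MBD3 replicate 2, both CHD4 lists and ZFP296. Peaks downstream of Max were therefore partly inside a neighbour, and for 6 of the 42 the nearest start was that of Fntb.

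Mga, on the plus strand at chr2:119722964-119795317, had 35 peaks in 8 lists. ESC MBD3 gave 1 peak in each replicate, and ESC CHD4 gave 7 and 15. NPC MBD3 and NPC CHD4 gave 1 each, ZFP296 gave 0, and SIN3A gave 7 without and 2 with spike-in. Mga was the one member with no ZFP296 peak, and 3 peaks in that list would be 9.67 per 10000. Its window was the widest, 272.4 kb against a median of 215.4 kb over all genes, and for 17 of its 35 peaks the nearest start belonged to another gene. Only 2 of the 35 peaks fell within the Mga body.

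The NuRD region of Mga lay far upstream, at −39.7 kb (chr2:119683099-119683506, intergenic), and held both MBD3 and both CHD4 lists, with a CHD4 value of 17.2 in replicate 1. The region at −23.9 kb held both CHD4 lists and SIN3A without spike-in. The third was at the start of Tyro3, a receptor tyrosine kinase gene, at −97.6 kb from Mga, and held NPC MBD3 with both SIN3A lists. All ESC CHD4 peaks at Mga lay upstream of the start except 1 of replicate 2, past the 3′ end, and none lay in the gene body.

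**Figure D2:**
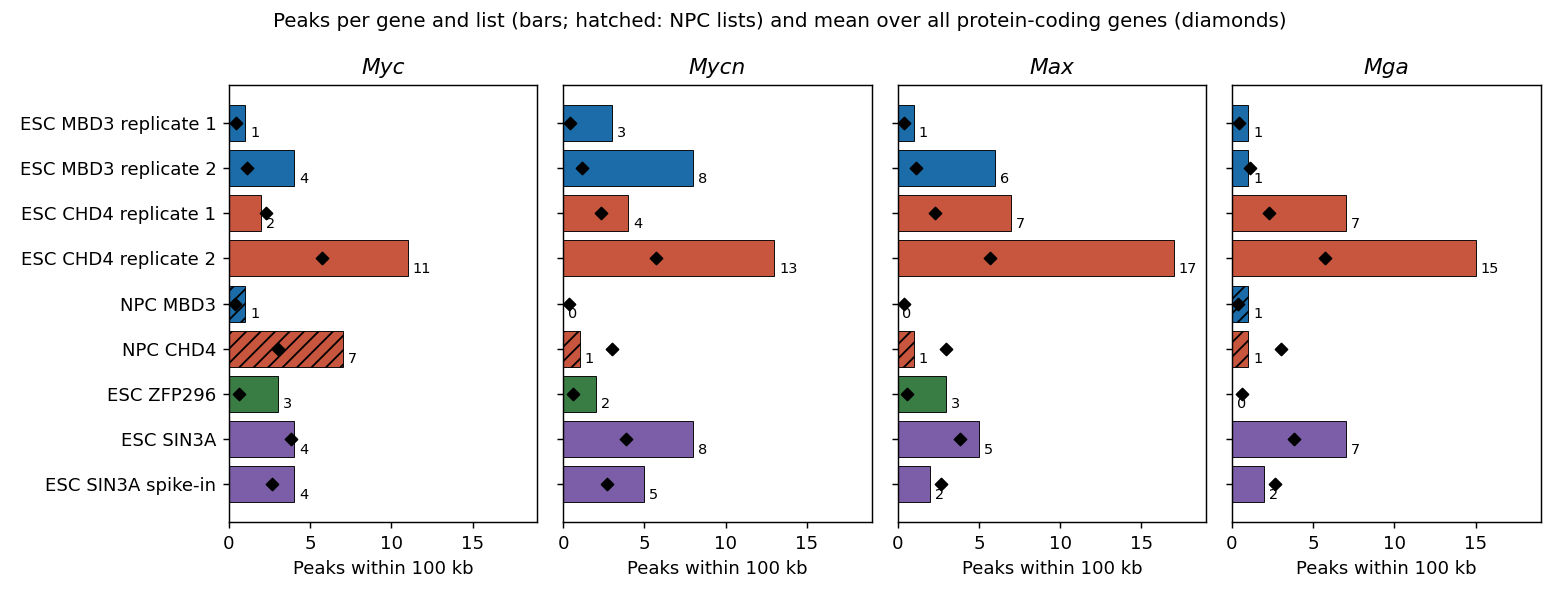
Number of peaks within 100 kb (x axis) in each list (y axis) for Myc, Mycn, Max and Mga, with diamonds at the mean over all 22380 protein-coding genes. Hatched bars are NPC lists. In NPC CHD4, Myc has 7 peaks, above the mean of 3.01, and the other genes have 1 each, below it.

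All 4 genes had a peak within 100 kb in most lists, which many genes do. In ESC MBD3, 4 of 4 had a peak in both replicates, where 24.3% and 47.1% of all protein-coding genes did. In ESC CHD4 it was 4 of 4 in both, against 54.6% and 76.5%. In NPCs, 2 of 4 had an MBD3 peak (all genes 24.7%) and 4 of 4 a CHD4 peak (69.8%). ZFP296 peaks were found at 3 of 4 (32.4%), and SIN3A peaks at 4 of 4 without (73.1%) and with spike-in (68.3%). The median number of peaks over the 4 genes was 1 and 5 for ESC MBD3 in replicate 1 and replicate 2, 5.5 and 14 for ESC CHD4, 2.5 for ZFP296, and 6 and 3 for SIN3A without and with spike-in, where the medians over all genes were 0 and 0, 1 and 3, 0, and 3 and 2. In NPC CHD4 the median was 1 over the members, with 7 peaks at Myc and 1 at each of the other 3 genes, and 2 over all genes.

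The members ranked alike in both ESC CHD4 replicates, with Max highest or level with Mga, then Mycn, then Myc. Their shares were 5.98, 5.98, 3.42 and 1.71 per 10000 peaks in replicate 1 for Max, Mga, Mycn and Myc, and 5.67, 5.00, 4.34 and 3.67 in replicate 2. The 95% exact binomial intervals of neighbours in that order overlapped in each replicate. Those of its ends, Max and Myc, overlapped too, at 2.40 to 12.3 against 0.207 to 6.17 in replicate 1. In replicate 2 they were 3.30 to 9.08 against 1.83 to 6.57. Intervals cover counting error only. Window widths also differed, with 272.4 kb at Mga, 225.0 kb at Max, 205.8 kb at Mycn and 205.0 kb at Myc. The shares were not divided by width.

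Peaks close to a start were mostly SIN3A. With the TSS window of the study, from 1 kb upstream to 5 kb downstream of any start of the gene, 32 of the 158 peaks counted, 16 of them at Mycn, 9 at Myc, 5 at Max and 2 at Mga. SIN3A without spike-in was found in the window of 4 of 4 genes (42.2% of all genes) and SIN3A with spike-in in 3 of 4 (34.6%), Mga being the gene without. ESC MBD3 was found there at 0 of 4 in replicate 1 (2.80%) and 3 of 4 in replicate 2 (4.89%). ESC CHD4 was found at 1 of 4 (10.2%) and 3 of 4 (26.4%), NPC MBD3 at 0 of 4 (2.80%), NPC CHD4 at 1 of 4 (15.4%) and ZFP296 at 0 of 4 (3.70%). The NPC CHD4 peak was that at the Myc start, with the value 6.48, in the 21.5th percentile of its list. The single CHD4 peak of replicate 1 was the intronic one of Mycn, which lay more than 1 kb from the start, and with a window of 1 kb to each side the count was 0.

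At the start of Mga, the 2 SIN3A peaks had values of 14.9 at 0.295 kb and 21.9 at 1.27 kb. At Mycn, 6 SIN3A peaks without and 4 with spike-in lay between −0.682 and 4.82 kb. At Max, CHD4 replicate 2 had a value of 14.5 at −0.422 kb and MBD3 replicate 2 one of 7.68 at −0.533 kb. At Mycn, CHD4 replicate 2 had a value of 23.7 at −0.101 kb, the 96.9th percentile of its list and the highest value of that list near the 4 genes. No MBD3 peak of replicate 1 was within any of these windows, so the MBD3 calls near starts rested on replicate 2.

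The promoters of Myc, Mycn and Max are printed as the 250 bases upstream of the outermost start, with the GC box GGGCGG or its reverse complement CCGCCC in capitals, because SIN3A peaks lay there in both lists.
Myc, plus strand, chr15:61816696-61816945: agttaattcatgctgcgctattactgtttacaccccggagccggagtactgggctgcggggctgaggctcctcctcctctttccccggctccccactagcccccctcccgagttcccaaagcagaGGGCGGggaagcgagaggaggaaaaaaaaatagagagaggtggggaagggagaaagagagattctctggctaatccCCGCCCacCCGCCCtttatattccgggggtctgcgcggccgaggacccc
Mycn, minus strand, chr12:12948721-12948970: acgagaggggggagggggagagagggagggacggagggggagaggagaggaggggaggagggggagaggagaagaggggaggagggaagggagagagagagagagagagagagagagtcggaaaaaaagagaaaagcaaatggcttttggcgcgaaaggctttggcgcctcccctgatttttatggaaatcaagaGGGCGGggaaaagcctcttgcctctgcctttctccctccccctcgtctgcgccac
Max, minus strand, chr12:78063236-78063485: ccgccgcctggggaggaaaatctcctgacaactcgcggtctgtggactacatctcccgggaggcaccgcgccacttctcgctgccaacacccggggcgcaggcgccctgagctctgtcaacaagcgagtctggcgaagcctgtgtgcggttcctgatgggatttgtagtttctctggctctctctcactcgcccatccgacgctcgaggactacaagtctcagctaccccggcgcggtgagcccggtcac
The GC box is a binding string of the SP family and occurred, on either strand, in the promoters of Myc, Mycn and Mga but not of Max. Of 22375 promoters of this length 39.6% held it. Among SIN3A peaks near the 4 genes, 9 of 24 without and 4 of 13 with spike-in held it in their central 200 bases, against 47.1% and 52.3% of those lists. The E-box, to which MYC and MAX bind, occurred in 4 of the 24 SIN3A peaks without spike-in (7.35% of that list) and in 0 of the 13 with spike-in (6.32%). In ESC CHD4 peaks near the members it was in 2 of 20 for replicate 1 (4.83%) and 3 of 56 for replicate 2 (4.96%). These matches are descriptions of the letters only.

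The comparison of ESCs with NPCs rested on 2 ESC lists and 1 NPC list for each factor, so no test between the cell types was run, and differences were set beside the gap between the ESC replicates. CHD4 near Mycn made up 3.42 and 4.34 per 10000 peaks of the ESC lists and 0.494 of the NPC list. CHD4 near Max made up 5.98 and 5.67 in ESCs and 0.494 in NPCs. Near Mga the shares were 5.98 and 5.00 in ESCs and 0.494 in NPCs. These 3 genes had higher shares in both ESC lists, as did 33.1% of all protein-coding genes. The ESC mean minus the NPC value was 3.38 at Mycn, 5.33 at Max and 5.00 at Mga, where the ESC replicates differed by 0.922, 0.305 and 0.972.

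Myc did not follow them. Its CHD4 shares were 1.71 and 3.67 per 10000 in ESCs (mean 2.69 ± 1.39, SD, n = 2) and 3.46 in NPCs, so the NPC value lay between the ESC replicates and the difference of −0.771 was smaller than their gap of 1.96. The exact 95% interval of the NPC share was 1.39 to 7.13 at Myc and 0.0125 to 2.75 at each of the other genes. The interval of ESC replicate 2 lay above that NPC interval at Max (3.30 to 9.08) and Mga (2.80 to 8.25) and overlapped it at Mycn (2.31 to 7.42), and all intervals of replicate 1 overlapped it. Chromosome 12, which carries Mycn and Max, held 3.08% and 3.55% of ESC CHD4 peaks and 3.88% of NPC CHD4 peaks. Chromosome 2, which carries Mga, held 7.27% and 7.74% in ESCs and 7.74% in NPCs. Chromosome 15, which carries Myc, held 3.996% and 4.27% in ESCs and 4.51% in NPCs. None of these chromosomes had a higher share in both ESC lists. Whether differences between whole chromosomes contribute to the shares near the genes was not tested.

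**Figure D3:**
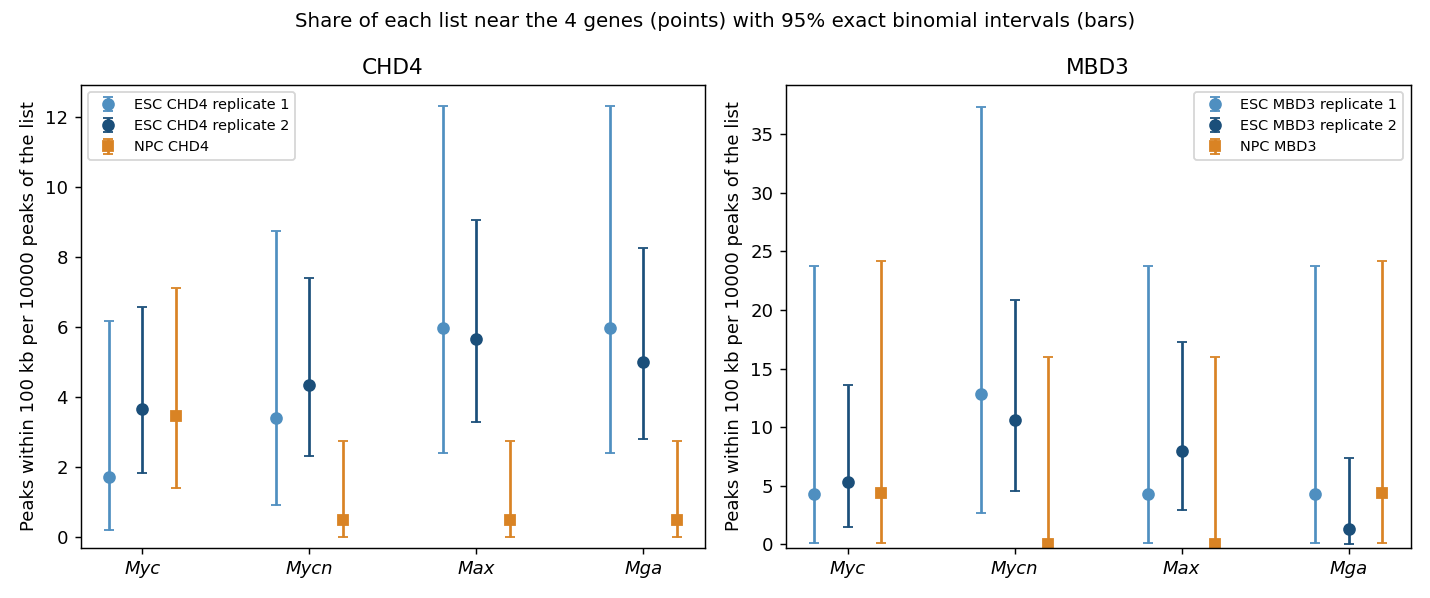
Peaks within 100 kb per 10000 peaks of the list (y axis) for CHD4 (left) and MBD3 (right) at each gene, as points for both ESC replicates (circles) and the NPC list (squares), with 95% exact binomial intervals as bars. For CHD4, the NPC square is at 0.494 for Mycn, Max and Mga and at 3.46 for Myc.

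MBD3 counts were small. Mycn had 12.8 and 10.6 per 10000 in ESCs and 0 in NPCs, where 3 peaks would be 13.0, so a difference was not detectable with so short an NPC list. Max had 4.27 and 7.95 in ESCs and 0 in NPCs. By order alone, shares were higher in both ESC lists at these 2 of 4 genes (all genes 14.2%). Their ESC shares all lay below the 13.0 that 3 NPC peaks would give, so this count does not show a difference. Myc had 4.27 and 5.30 in ESCs and 4.34 in NPCs. Mga had 4.27 and 1.32 in ESCs and 4.34 in NPCs, lower in both ESC lists as at 20.5% of all genes, but each of the Mga values of 4.27 and 4.34 was 1 peak. The NPC intervals overlapped those of both ESC lists at all 4 genes.

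Of 88 joined regions near the 4 genes, 77 held peaks of ESC lists only, 9 of NPC lists only and 2 of both. Most of the 9 lists, among them the longest, were from ESCs. The same shares over all genes were not computed, so these counts do not set the 4 genes apart. Of the 2 regions with both cell types, one was the Myc start and the other the Tyro3 start in the Mga window. In both, the ESC peaks were SIN3A. None of the 10 NPC CHD4 peaks overlapped a CHD4 peak of either ESC replicate, which allows a share of up to 30.8% (exact 95% limit), and of all NPC CHD4 peaks 15.6% did, a share within that limit. The distance between midpoints of an NPC CHD4 peak and the nearest ESC CHD4 peak ranged from 0.864 kb at the Myc start to 17.2 kb at Max.

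In ESCs, 6 MBD3 sites found in both replicates lay near the 4 genes, 3 at Mycn and 1 at each of the others. CHD4 sites of both replicates overlapped 5 of them (83.3%, exact 95% interval 35.9 to 99.6%), close to the 84.5% of all ESC MBD3 sites. ZFP296 peaks overlapped 3 of the 6 (50%, 11.8 to 88.2%), which were the Myc site and 2 Mycn sites, against 42.0% of all. Sites of SIN3A found in both lists overlapped 0 of the 6, which allows up to 45.9%, and 26.8% of all. The CHD4 sites of both replicates numbered 17, with 2 at Myc, 4 at Mycn, 6 at Max and 5 at Mga. MBD3 sites overlapped 5 of the 17 (29.4%, 10.3 to 56.0%), against 15.7% of all CHD4 sites. ZFP296 peaks also overlapped 5 of the 17, against 15.4% of all. SIN3A sites overlapped 1 (5.88%, 0.149 to 28.7%), the downstream region of Myc, against 13.1% of all. NPC CHD4 peaks overlapped 0 of the 17, which allows up to 19.5%, against 13.1% of all. All intervals contained the share of the whole set.

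Of the 88 regions, 55 were held in 1 list, and 31 of these rested on ESC CHD4 replicate 2 alone, the longest list with 29974 peaks. All peak names of that list mention a Zfp219 BAC, although its label gives wild-type ESCs. Without it, peaks fell from 42 to 25 at Max and from 35 to 20 at Mga. The 5 NuRD sites need both CHD4 lists by definition. Most regions were outside exons, with 51 intergenic, 27 in introns and 10 in exons or UTRs.

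The other genes of the network were 35 in 6 groups. Peaks in their TSS windows were counted in 32 of 35 for SIN3A without spike-in (91.4%, all genes 42.2%) and 26 with spike-in (74.3%, all genes 34.6%). For ESC CHD4 it was 8 in replicate 1 (22.9%, all genes 10.2%) and 19 in replicate 2 (54.3%, all genes 26.4%), and for ESC MBD3 2 (5.71%, all genes 2.80%) and 3 (8.57%, all genes 4.89%). NPC MBD3 was counted in 6 (17.1%, all genes 2.80%), NPC CHD4 in 9 (25.7%, all genes 15.4%) and ZFP296 in 3 (8.57%, all genes 3.70%). The MXD and MNT repressors, partners of MAX, had SIN3A in the window of 5 of 5 genes in both lists (all genes 42.2% and 34.6%). Other groups were similar in the list without spike-in, with 3 of 3 genes of the MLX arm, 2 of 2 paralogs and 8 of 9 target genes, and with spike-in the counts were 0, 0 and 8. The PRC1.6 partners had 8 of 9 without and 7 of 9 with spike-in, and the cofactor and turnover genes had 6 of 7 in both. Mxi1 had a TSS-window peak in 8 lists, the one without being ZFP296, and Mnt in 7, while Mxd3 had one in 4 lists and Mxd1 and Mxd4 in 2 each. The members had one in 5 lists at Mycn, 5 at Myc, 4 at Max and 1 at Mga.

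Among 9 partners of MGA and MAX in PRC1.6, SIN3A without spike-in was in the window of 8 (all genes 42.2%), CHD4 replicate 2 in that of 8 (26.4%) and CHD4 replicate 1 in that of 4 (10.2%). Ring1, a ubiquitin ligase subunit, had a TSS-window peak in 6 lists, and Rybp in 5. Of 7 MYC cofactor and turnover genes, Zbtb17, which encodes the MYC partner MIZ1, had one in 5 lists and Wdr5 in 3. Of 9 MYC target genes, the translation factor gene Eif4e had one in 5 lists and Nme1 in 4. Mlxipl, a glucose-responsive factor of the MLX arm, had one in 3 lists and Mlx in 1. The paralogs Mycl1 and Bmyc had one in 2 lists and 1 list.

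**Figure D4:**
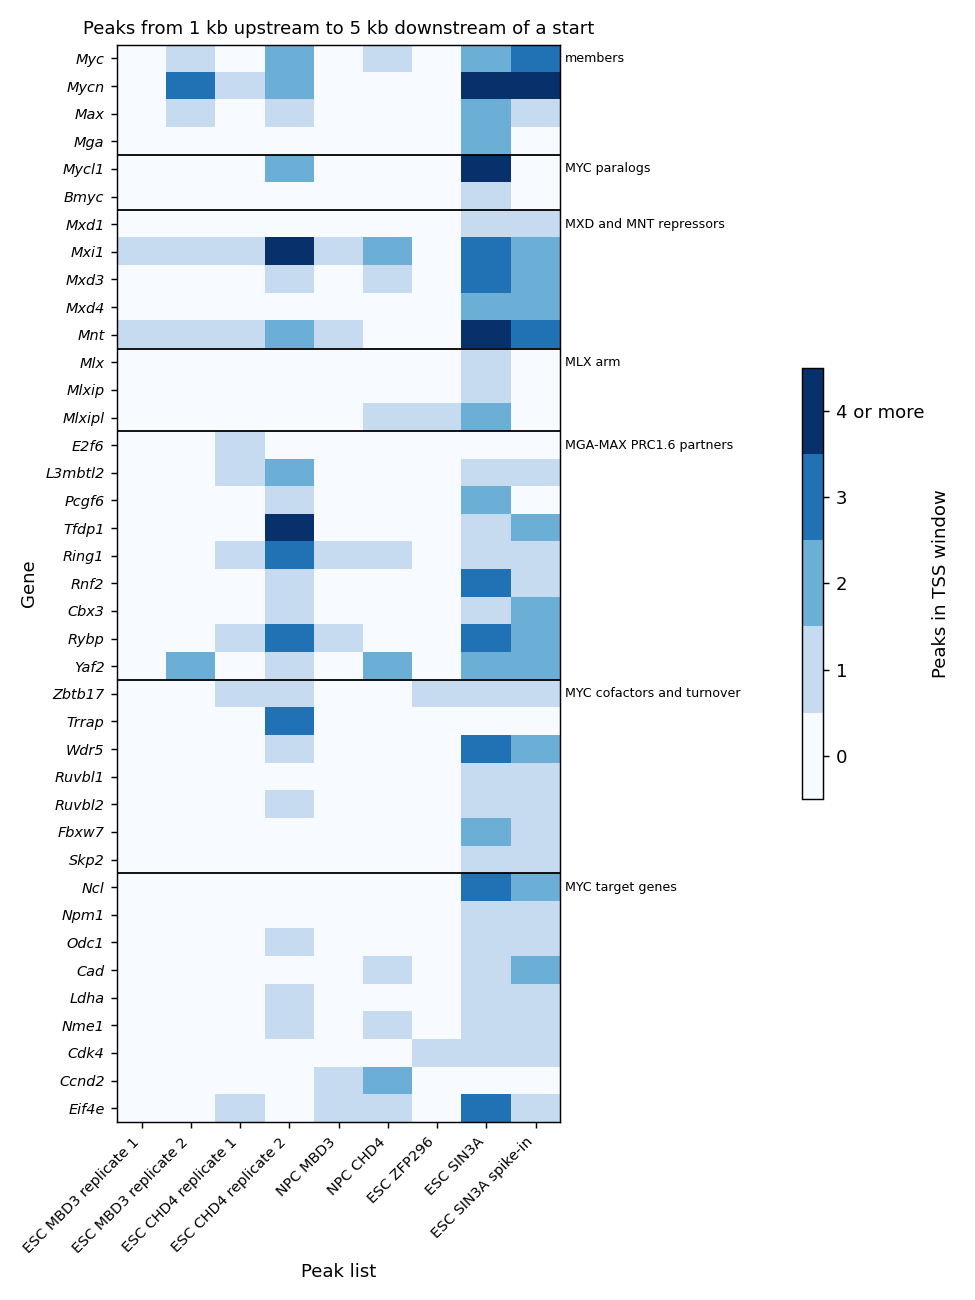
Number of peaks in the TSS window (colour, from 0 to 4 or more) for the 4 members and 35 other network genes (y axis, lines part the groups) in each of 9 peak lists (x axis). Both SIN3A columns are filled for 5 of 5 MXD and MNT repressors, and Mga has peaks in 1 list.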

How the data were processed

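ChIP-seq libraries were sequenced by the authors, mapped to mm9 with BWA, restricted to uniquely mapped reads and cleared of duplicates. The authors called peaks for each sample on its own with MACS2 (version 2.0) against input. The deposited score of a peak is a −log10 of p or q (which of them is not given in the sources used here) and was ranked only inside its own list. Peak names carry a threshold of 0.001 in 8 lists and 0.0001 in SIN3A without spike-in, and those of 7 lists mention an equal number of reads. The read number of the SIN3A lists is unknown. Lists held from 2304 to 29974 peaks, so counts were compared as shares of each list, with 95% exact (Clopper-Pearson) intervals that cover counting error only. The deposited files hold no read counts per peak, so no level of binding was compared.

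Groups and replicate numbers came from the sample titles. Whether replicates came from separate cultures is not given in the labels. The ZFP296 line is labelled as R1 ESCs with a ZFP296 BAC, but the study's methods place GFP-ZFP296 in KH2 ESCs. Peaks with the midpoint within 100 kb of a gene body were assigned to it, and all 22380 protein-coding genes gave the background. A site set held the peaks of the shorter list that overlapped the longer by at least 1 bp. No test between groups was run, with 1 or 2 lists a group and 1 NPC list for each factor.

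Alternatives were windows of 50 and 200 kb, a value of at least 5, equal list sizes, other overlaps, a TSS window of 1 kb, and each of the 4 ESC MBD3 and CHD4 lists left out. Scripts were tested on simulated peaks. The named genes were the members, at most 2 genes a network group by the number of lists with a TSS-window peak, and for each member 3 genes of like counts. In the MXD and MNT group all 5 genes were named, beyond that limit. Named regions were the TSS-window peaks and the 3 regions per member held in the most lists, and any other peak named was chosen after its values were seen. Members and lists were chosen with earlier results of these data known. Sequences were read from the mm9 genome (NCBIM37) with pyfaidx 0.9.0.4, and samtools 1.23.1, scipy 1.17.1, numpy 2.4.6 and matplotlib 3.10.9 were run under Python 3.11.15.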

Additional observations from a re-analysis of the deposited data

How the results depend on the processing

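Of 130 recomputed values for 24 results, 6 changed sign and 20 others moved by more than the SD of the ESC replicates (for counts, by more than 1.5 times), and the cause was not tested. The other 104 stayed within those bounds, which are wide for the Myc differences and the MBD3 difference at Mga. No paired analysis was possible because the results come from no test. With windows of 50 kb, total peaks were 27 at Max and 20 at Mga, and with 200 kb 76 at Mycn and 64 at Mga. The CHD4 share in ESCs minus NPCs, per 10000 peaks, became 0.706 at Myc (a reversal), 2.71 at Mycn, 3.80 at Max and 3.47 at Mga with 50 kb, and 6.86 at Mycn, 4.18 at Max and 3.91 at Mga with 200 kb. With lists cut to equal sizes it was −1.71 at Myc, from −0.771, 5.98 at Max and 3.84 at Mga. The MBD3 difference became 4.12 at Myc and 2.80 at Mga (a reversal) with 50 kb, and −3.24 at Myc (a reversal), 16.3 at Mycn and 1.91 at Mga (a reversal) with 200 kb. At Mycn it was 9.92 with values of at least 5 and 8.68 with equal list sizes, where it was 0 at Myc and 0 at Mga. Members with a TSS-window peak of ESC CHD4 replicate 1 fell to 0 with 1 kb to each side.

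Leaving out each of the 4 ESC MBD3 and CHD4 lists in turn gave totals of 26 to 36 at Myc, 31 to 41 at Mycn, 25 to 41 at Max and 20 to 34 at Mga, the lowest in each case without ESC CHD4 replicate 2. The CHD4 difference ranged from −1.75 to 0.210 at Myc (positive without replicate 1), 2.92 to 3.84 at Mycn, 5.18 to 5.48 at Max and 4.51 to 5.48 at Mga. The MBD3 difference ranged from −0.0741 to 0.957 at Myc (negative without replicate 2), 10.6 to 12.8 at Mycn, 4.27 to 7.95 at Max and −3.02 to −0.0741 at Mga. ESC NuRD sites numbered 5 to 9, with 9 without ESC MBD3 replicate 1. With all lists kept and values of at least 5 they numbered 4. The direction of the Myc differences and of the MBD3 difference at Mga therefore depends on window or list. The CHD4 differences at Mycn, Max and Mga were positive in each alternative run. For MBD3 at Mycn and Max the NPC list held 0 peaks within 100 kb, so the sign there could not turn by leaving out an ESC list.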

Other observations

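The genes whose peak counts over the 9 lists were most like those of each member were found by the mean absolute difference in counts, leaving out genes with an overlapping window. For Mga they were Ly75 (0.556 peaks), a lectin-like endocytic receptor gene also on chromosome 2, Als2cl (0.667) and Gm572 (0.667). For Max they were Gm9846 (0.556), Gm885 (0.667) and Toe1 (0.667), which encodes a nuclear exonuclease. For Myc they were 1110004E09Rik (0.667), Ociad1 (0.667) and Ccdc46 (0.778), and for Mycn Osbpl10 (0.667), an oxysterol-binding-protein-related gene, 2610027L16Rik (0.889) and Adcy4 (1.00), an adenylyl cyclase gene. Osbpl10, like Mycn, had 8 peaks of ESC MBD3 replicate 2, 1 NPC CHD4 peak and 0 NPC MBD3 peaks.

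The authors' values of NPC CHD4 peaks near the 4 genes were high within their list, with a median at the 79.8th percentile over 10 peaks, while the 24 SIN3A peaks without spike-in had a median at the 37.9th percentile and the 6 peaks of ESC MBD3 replicate 1 at the 28.5th. The NPC CHD4 peak at −41.3 kb from Mycn had the value 19.6 and the 93.7th percentile, and that at −59.9 kb from Max had the value 8.65, below the median of its list.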
